A study of Mus musculus with 84 samples.

Results

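Epididymal white adipose tissue (eWAT), the visceral fat pad beside the testis, was compared between mice given BI 456906 at 30 nmol/kg and mice given semaglutide at 100 nmol/kg. These are 12 of the 84 RNA sequencing libraries of the series, 6 in each group, chosen by the treatment and dose in their labels and by the library number that each column shares with a sample title. All of the mice were male C57BL/6J animals made obese on a 60% high-fat diet. They were 22 weeks old when treatment began and were injected under the skin every day for 30 days. BI 456906 is a peptide agonist of both the glucagon receptor and the glucagon-like peptide-1 (GLP-1) receptor, and semaglutide is an agonist of the GLP-1 receptor. The doses were 30 and 100 nmol/kg, so compound and dose cannot be told apart here. The matched pair at 20 nmol/kg, 6 libraries a group and none shared, and the vehicle group, also 6 libraries, are used beside it.

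White fat stores triglyceride and releases it as fatty acids through lipolysis, which hormones drive through cyclic AMP. In mice that lose fat, the fat cells shrink and the macrophages and connective tissue between them change as well, and beige fat cells, which carry genes of heat production, can appear in white depots. The glucagon receptor is found mainly on liver cells and at a lower level in rodent fat, while the GLP-1 receptor is known mainly from the pancreas and brain.

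Transcripts of the receptors were low in the 12 libraries. Gcgr, the glucagon receptor gene, was present at 1.55 to 5.80 TPM (a level per length of transcript and per library total) with BI 456906 and at 1.19 to 4.79 TPM with semaglutide. The groups overlapped, and the log2 difference was 0.31 (SE 0.50, FDR 0.722 in limma/voom). Glp1r, the GLP-1 receptor gene, had 0 to 1 reads with BI 456906 and 0 to 2 reads with semaglutide, which is at or under the floor of 3 reads, and it was not tested. The vehicle mice had 8.62 ± 5.65 TPM of Gcgr (SD, n = 6). Their hepatocyte (liver cell) markers summed to 148 to 11650 TPM, with a median of 3391 TPM. Among the 12 libraries, Gcgr was highest in libraries 27 and 42, which also had the most Alb (albumin) in their groups. The part of liver RNA in the Gcgr levels was not tested.

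The 12 libraries held 37573004 to 50769372 reads each, and 4.12 to 6.84% of TPM came from the mitochondrial genome. Neither the reads (exact two-sided permutation test, p = 0.578) nor the mitochondrial share (exact permutation p = 0.255) differed beyond the spread of the groups. The libraries were fat: the 12 adipocyte markers summed to 12446 to 31292 TPM, with none at 0. Summed markers of exocrine pancreas were at most 0.2 TPM and those of epididymis and testis were 6.7 to 14.6 TPM. Hepatocyte markers summed to 682 to 3291 TPM with BI 456906 and to 146 to 2750 TPM with semaglutide. In BI 456906 library 25, the marker Cyp2e1 made up 1414.11 of 1464.81 TPM, and Alb stood at 13.71 TPM. In semaglutide library 39, Cyp2e1 made up 1745.72 of 1841.82 TPM, and Alb stood at 21.47 TPM. Alb was highest in BI 456906 library 27 (548.13 TPM) and semaglutide library 42 (747.24 TPM). The part of the hepatocyte markers in the results was not tested. In each group, 1 library or more stood apart. With BI 456906, library 29 had an adipocyte marker sum of 16874 TPM against 25432 to 31292 TPM in the other 5, and a macrophage marker sum of 31123 TPM against 11574 to 16710 TPM. With semaglutide, library 40 had the lowest adipocyte marker sum, 12446 TPM, and a Col1a1 level (a fibrillar collagen gene) of 1008 TPM against 115 to 292 TPM in the other 5. Library 40 also stood apart from all of the other 11 libraries in inflammatory genes, with 124.9 TPM of Il6 (interleukin 6) against at most 0.35 TPM and 309 TPM of Ccl2 (a monocyte chemokine) against at most 42.5 TPM, and in Timp1, an inhibitor of matrix proteases, with 272 TPM against at most 49.4 TPM. In bulk tissue, fewer cells of a type and less RNA per cell cannot be told apart.

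Fat differed between the compounds in 1 gene by the rule of the study, a log2 difference of at least 1 with a false discovery rate (FDR) of at most 0.05 in limma/voom. That gene was Tent5b, which belongs to the noncanonical poly(A) polymerases, and it rose with BI 456906. It is 0.00539% of the 18536 genes tested. At an FDR of at most 0.05 with no limit on size, 2 genes passed (0.0108%), Tent5b and Dusp18, a dual-specificity phosphatase gene, and both were higher with BI 456906. Many more genes lay just past the threshold, since 219 genes had an FDR of at most 0.06 and 1058 had one of at most 0.10. At an unadjusted p under 0.05, 1903 genes were higher with BI 456906 (10.3%) and 2664 were lower (14.4%), together 24.6% of the genes tested.

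**Figure D1:**
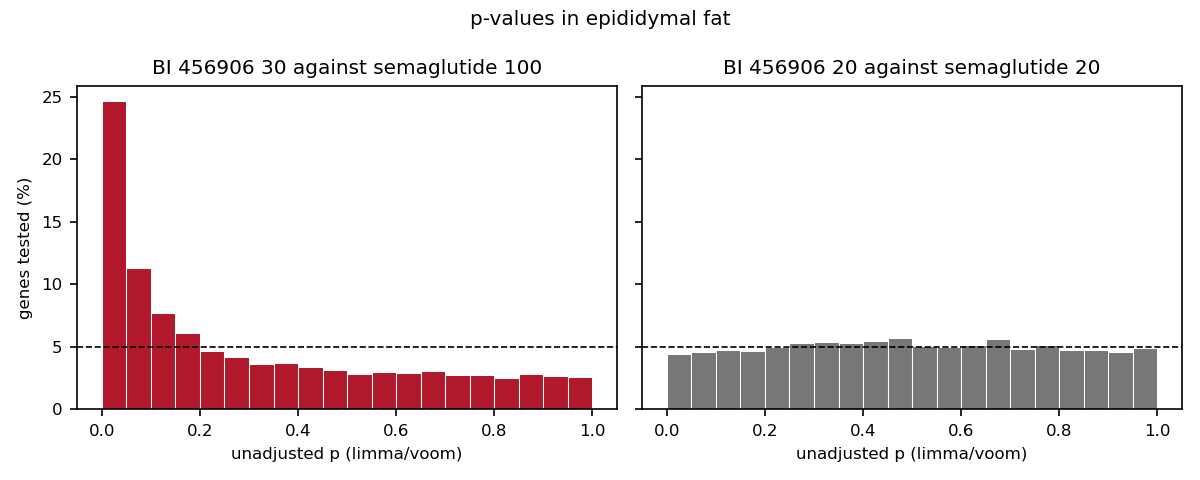
Share of the 18536 genes tested (%, y axis) in 20 bins of the unadjusted limma/voom p (x axis), for BI 456906 30 against semaglutide 100 (left) and BI 456906 20 against semaglutide 20 (right); the dashed line marks the 5% a bin would hold if p-values were spread evenly. The first bin holds 24.6% of genes on the left and 4.40% on the right.

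The number of genes that passed rested on single libraries. Without BI 456906 library 29, 1785 genes had an FDR of at most 0.05 and 262 were called with a log2 difference of at least 1. Without semaglutide library 39 these counts were 1082 and 192, without semaglutide library 38 they were 400 and 107, and without BI 456906 library 28 they were 65 and 13. In the other direction, no gene passed by limma/voom without BI 456906 library 27, semaglutide library 40 or semaglutide library 41, where 3322, 2734 and 3441 genes had an unadjusted p under 0.05. Without semaglutide library 37, 1 gene had an FDR of at most 0.05 and 0 were called. Without semaglutide library 42, 4 genes had an FDR of at most 0.05, and without BI 456906 library 25, 2 genes were called. With both library 29 and library 40 left out, 1 gene had an FDR of at most 0.05 and 0 were called, while 4805 had an unadjusted p under 0.05. The methods also disagreed: on reads recovered from the deposited values, edgeR called 112 genes (10 higher, 102 lower) and DESeq2 called 151 (13 higher, 138 lower).

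**Figure D2:**
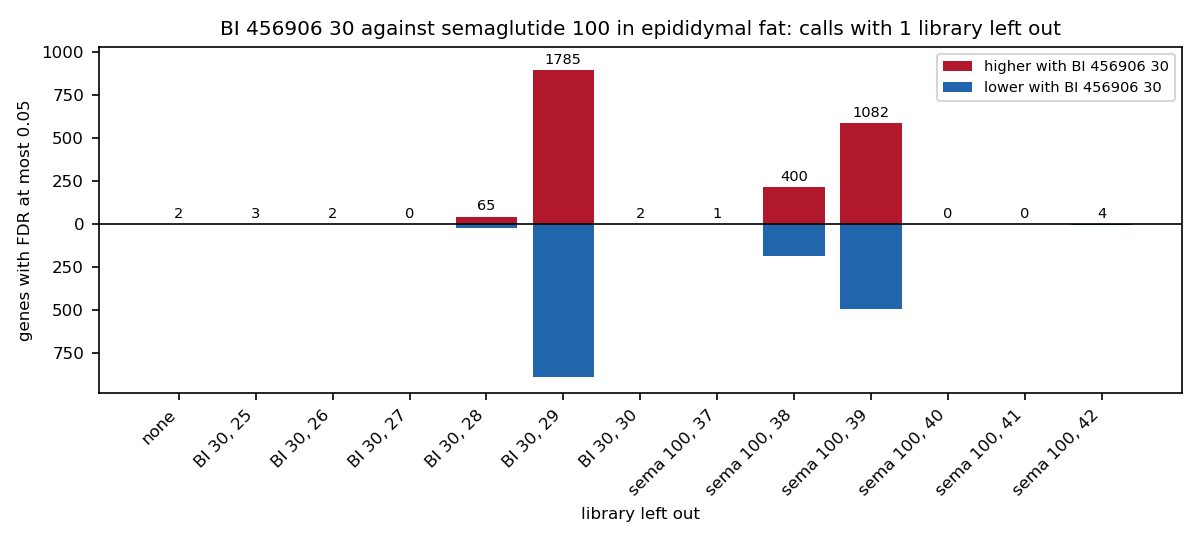
Number of genes with an FDR of at most 0.05 (y axis; higher with BI 456906 30 above the line, lower below it) in limma/voom with all libraries ("none") and with each of the 12 libraries left out in turn (x axis, group and library number); the total stands above each bar. The totals run from 0 to 1785.

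Tent5b (chromosome 4, 133480132 to 133487938 on GRCm38, plus strand) stood at 7.34, 5.33, 8.09, 7.05, 4.67 and 6.61 TPM in the BI 456906 libraries and at 2.17, 2.17, 3.08, 1.81, 2.03 and 3.51 TPM in the semaglutide libraries. Every BI 456906 library lay above every semaglutide library, and over all genes tested 0.399% were apart in this way, with BI 456906 above. The log2 difference was 1.38 (SE 0.24, 95% interval 0.90 to 1.87, FDR 0.0205). Vehicle mice had 2.31 ± 0.543 TPM, close to the level with semaglutide. At 20 nmol/kg, BI 456906 mice had 4.98 ± 1.19 TPM and semaglutide mice 3.73 ± 1.31 TPM, a log2 difference of 0.41 with an interval of -0.06 to 0.89.

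Dusp18 (chromosome 11, 3895240 to 3901296, plus strand) lay between 5.20 and 6.81 TPM with BI 456906 (median 6.09) and between 2.89 and 4.93 TPM with semaglutide (median 4.03), again with no overlap. The log2 difference was 0.57 (SE 0.10, FDR 0.0205). At 20 nmol/kg it was 0.05, with an interval of -0.15 to 0.25. Over the alternative settings, 24 for each gene, Tent5b kept an FDR of at most 0.05 in 19 and Dusp18 in 19, and neither changed direction.

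The next genes by p did not pass the FDR threshold, and their values are given as a description. Higher with BI 456906 were Cox8b, a subunit of cytochrome c oxidase found in brown and beige fat (44.1 to 144 TPM against 5.06 to 57 TPM, log2 difference 1.75, SE 0.36, FDR 0.0505), and Ccn2, connective tissue growth factor (54.3 to 92.7 TPM against 16.6 to 52.7 TPM, log2 difference 1.23, FDR 0.0520). Maff, a small Maf transcription factor gene, was at 24 to 34.5 TPM against 10.2 to 22.8 TPM, a log2 difference of 0.88. The groups did not overlap for Ccn2 and Maff, and for Cox8b library 28 of BI 456906 lay below semaglutide libraries 38 and 39. Arl2, Prpsap1, Zfp777, Mars (the methionyl-tRNA synthetase gene) and Rnd3 had log2 differences between 0.24 and 0.41. Arl2, a small GTPase gene, did not overlap (52.6 to 59.7 TPM against 37.1 to 52 TPM).

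The 10 genes with the smallest p on the lower side had an FDR of 0.0505 or more. Slc16a10, a transporter of aromatic amino acids, was at 16.2 to 20.0 TPM with BI 456906 and at 23.2 to 32.3 TPM with semaglutide, with no overlap, which 0.469% of all genes tested showed in this direction. Its log2 difference was -0.52 (SE 0.10, FDR 0.0505). Folr2, a folate receptor gene that marks resident macrophages, was at 116 to 160 TPM against 157 to 307 TPM, a log2 difference of -0.70. Brca1, a DNA repair gene, was at 1.04 to 2.38 TPM against 2.24 to 6.94 TPM, a log2 difference of -1.32. Castor2 (of the arginine sensors), Magt1, Ggta1, Slx4ip and Clasp1 had log2 differences between -0.50 and -0.21. Gm43924 and 5930403N24Rik, with log2 differences of -1.08 and -1.35, were under 1 TPM in all 12 libraries.

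**Figure D3:**
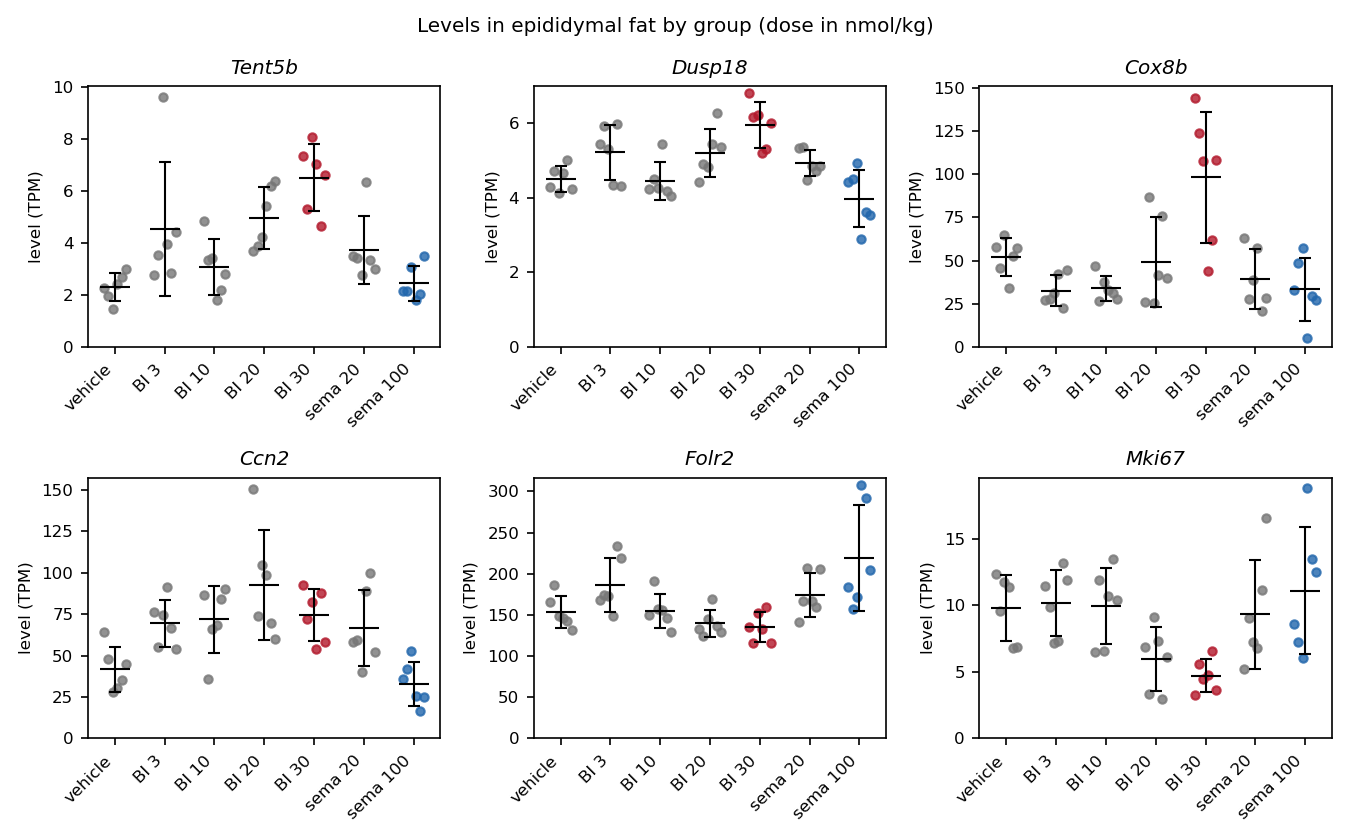
Level in TPM (y axis, from 0) of 6 genes in each of the 7 eWAT groups (x axis, dose in nmol/kg); points are libraries (6 a group), the bar and whiskers are the mean ± SD. BI 456906 30 is red and semaglutide 100 blue. Tent5b, Dusp18, Cox8b and Ccn2 sit higher with BI 456906 30 and Folr2 and Mki67 sit lower, with overlap in Cox8b, Folr2 and Mki67.

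Of these 20 genes, 18 had the same direction at 20 nmol/kg, in libraries that the comparison above does not use, 10 of the 10 higher genes and 8 of the 10 lower genes. An unadjusted p under 0.05 was found there for 8 of the 20. Over the 4567 genes with an unadjusted p under 0.05 at the high doses, 3729 (81.7%) had the same sign at 20 nmol/kg, and over all genes tested 67% did. The sizes were smaller: along the sign seen at the high doses, the median log2 difference of those 4567 genes was 0.36 at the high doses and 0.09 at 20 nmol/kg. No gene passed an FDR of 0.05 at 20 nmol/kg in limma/voom (lowest FDR 0.605), 815 had an unadjusted p under 0.05, edgeR called 0 and DESeq2 called 2. This does not show that the compounds acted alike at 20 nmol/kg, since the 95% interval of a gene's log2 difference extended 0.32 to either side at the median.

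Gene lists are described by their counts and medians. None of the members of any list passed an FDR of 0.05, so the counts are of unadjusted p under 0.05, to be read against the 10.3% (higher) and 14.4% (lower) of all genes and against a median log2 difference of -0.01 over all genes. Genes in this and the following accounts that the ranks above do not include, such as Mki67, Cidea, Sgk1 and Nr1d2, were named after their values were seen.

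Proliferation genes leaned lower with BI 456906. All 15 members of the cell cycle list had an unadjusted p under 0.05 on the lower side, with log2 differences from -1.25 to -0.57 and a median of -1.08. Mki67, which encodes the proliferation antigen Ki-67 (chromosome 7, 135689784 to 135716361, minus strand), was at 3.23 to 6.58 TPM with BI 456906 (median 4.62) and at 6.03 to 18.8 TPM with semaglutide (median 10.5). Library 29 of BI 456906 lay above library 39 of semaglutide and the groups were otherwise apart, and the log2 difference was -1.19 (SE 0.30, FDR 0.0540). Top2a, the topoisomerase of dividing cells, was at 4.90 to 15.8 TPM against 10.9 to 38.3 TPM, and Mcm5, a subunit of the replicative helicase, at 6.66 to 12.8 TPM against 11.2 to 27.1 TPM. With 20 nmol/kg of each compound, all 15 were again lower with BI 456906, 11 of them at an unadjusted p under 0.05, where 2.13% of all genes were lower and 2.27% higher at that level. The median there was -0.66, and none passed the FDR.

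Against vehicle, 5 of the 15 cell cycle genes fell with BI 456906 30 and 0 rose or fell with semaglutide 100 at an FDR of at most 0.05 in limma/voom. Over all genes, 13% fell and 10.9% rose with BI 456906 30, and 9.42% fell and 5.48% rose with semaglutide 100. For Mki67 the log2 difference from vehicle was -1.06 with BI 456906 (FDR 0.00902) and 0.13 with semaglutide (FDR 0.797). These comparisons share their vehicle libraries. All 15 genes also had an unadjusted p under 0.05 without libraries 29 and 40 (median -1.11). All 15 had an FDR of at most 0.05 on the lower side without library 29, where 4.76% of all genes did. Leaving out semaglutide library 39 gave 14 of 15, where 2.64% of all genes did. Leaving out semaglutide library 40, whose cell cycle sum was 480 TPM, no member passed that threshold, nor did any other gene. All 15 were still lower there at an unadjusted p under 0.05, where 7.13% of all genes were, and the median shrank to -0.88.

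The promoters of the cell cycle genes are shown because these genes moved together. The table of RefSeq promoters on GRCm38.p6 held 12 of the 15 genes. In the 250 bases before the start, the CCAAT box (CCAAT on either strand) was found in 11 of the 12 and in 33.8% of all 32851 promoters of the table. The cell cycle homology region (TTTGAA on either strand), known from genes of late cell cycle phases, was found in 6 of the 12 and in 16.0% of all promoters. The promoters of Mki67 (chr7:135716380-135716629, minus strand), Top2a (chr11:99024190-99024439, minus strand) and Ccnb2, cyclin B2 (chr9:70421555-70421804, minus strand), hold both. Capitals mark the CCAAT box and the cell cycle homology region, and in Ccnb2 also CGTCA near the start. CGTCA is a match to the core of the cyclic AMP response element (TGACG on either strand), which 3 of the 12 and 17.8% of all promoters hold. The E2F site (TTTNNCGC on either strand), also sought, was found in 2 of the 12 and in 4.28% of all promoters.
Mki67: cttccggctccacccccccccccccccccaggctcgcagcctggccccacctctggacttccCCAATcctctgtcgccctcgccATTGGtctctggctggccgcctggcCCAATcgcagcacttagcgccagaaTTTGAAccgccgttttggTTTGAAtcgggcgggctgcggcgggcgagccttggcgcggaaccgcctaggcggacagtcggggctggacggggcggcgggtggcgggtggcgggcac
Top2a: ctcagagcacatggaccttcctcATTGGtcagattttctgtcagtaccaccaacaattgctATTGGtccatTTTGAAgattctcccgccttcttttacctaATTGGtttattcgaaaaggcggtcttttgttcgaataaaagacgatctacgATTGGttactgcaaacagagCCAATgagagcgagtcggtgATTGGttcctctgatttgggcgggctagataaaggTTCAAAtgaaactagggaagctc
Ccnb2: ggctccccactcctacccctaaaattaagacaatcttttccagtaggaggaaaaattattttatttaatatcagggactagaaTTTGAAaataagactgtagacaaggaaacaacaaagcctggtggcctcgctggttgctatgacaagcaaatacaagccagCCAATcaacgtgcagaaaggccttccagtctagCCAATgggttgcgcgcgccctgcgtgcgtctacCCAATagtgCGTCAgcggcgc

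Macrophage markers leaned the same way as the cell cycle genes. Of 24 macrophage markers, 7 were lower and 1 higher with BI 456906 at an unadjusted p under 0.05, and the median log2 difference was -0.45. Adgre1, which encodes the macrophage protein F4/80, was at 136 to 259 TPM against 213 to 386 TPM (log2 difference -0.75, FDR 0.126), and Trem2, a receptor of lipid-associated macrophages, at 303 to 845 TPM against 506 to 782 TPM. Lyve1, found on resident macrophages and lymph vessels, went the other way, at 31.6 to 110 TPM against 15.3 to 36.5 TPM. The markers summed to a median of 15126 TPM with BI 456906 and of 24083 TPM with semaglutide, and none was at 0. Library 29, with the highest macrophage sum of its group, also had the highest cell cycle sum of its group, 310 TPM against 146 to 198 TPM. Without libraries 29 and 40, 14 macrophage markers were lower and 2 higher, where 15.7% of all genes were lower. Without library 40 alone, 2 of 24 were lower and 1 higher, where 7.13% of all genes were lower, so that the count was near the background. The part of the macrophage content in the cell cycle result was not tested.

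**Figure D4:**
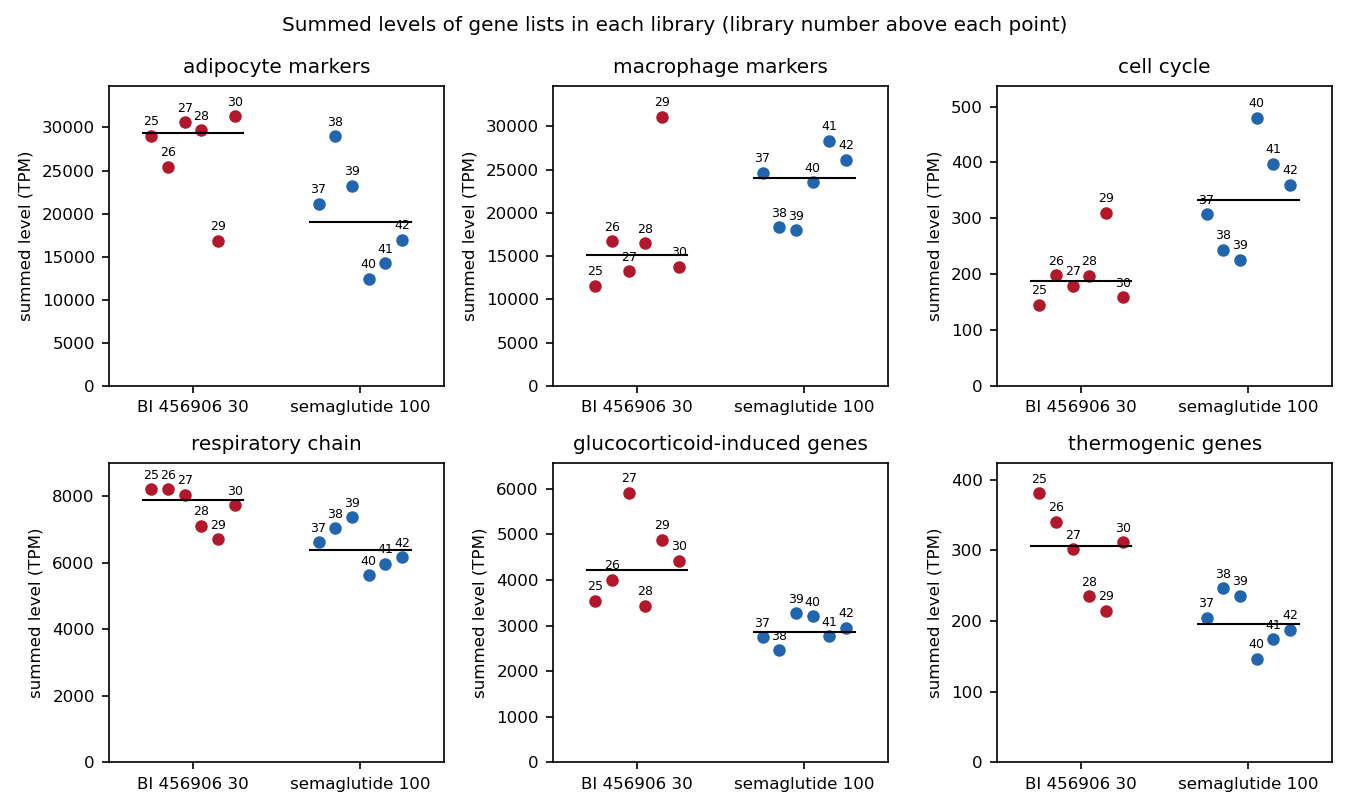
Summed level in TPM (y axis, from 0) of 6 gene lists in each library of BI 456906 30 (red) and semaglutide 100 (blue), with the library number above each point and a line at the median. The sums of the glucocorticoid-induced genes do not overlap, but those of its members other than Mt1 and Mt2 do (1200 to 1688 TPM against 904 to 1681 TPM), and library 29 lies among or beyond the semaglutide libraries for adipocyte markers, macrophage markers and cell cycle genes.

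Thermogenic and mitochondrial genes leaned higher with BI 456906. Of 19 thermogenic genes, 14 had a positive log2 difference, 6 were higher and 1 lower, with a median of 0.30. Beside Cox8b stood Cidea, a lipid droplet protein gene of brown fat, at 6.98 to 17.8 TPM against 1.56 to 7.70 TPM (log2 difference 1.42, SE 0.32, FDR 0.0540). Cox7a1, another oxidase subunit of brown fat, was at 13.8 to 31.1 TPM against 11.6 to 13.6 TPM, with no overlap, at an FDR of 0.139. Ucp1, the uncoupling protein of brown fat, was at 0.06 to 1.13 TPM against 0 to 0.41 TPM, with 4 to 47 reads against 0 to 22 reads. Ppargc1a, a coactivator of mitochondrial genes, was at 1.04 to 3.38 TPM against 0.46 to 2.45 TPM (log2 difference 0.50, FDR 0.325). At 20 nmol/kg, the log2 difference was 0.23 for Cox8b (interval -0.53 to 1.00) and 0.12 for Cidea (-0.54 to 0.79), and 0 of 19 thermogenic genes had an unadjusted p under 0.05. The thermogenic median against vehicle was -0.04 with BI 456906 30 and -0.45 with semaglutide 100. At an FDR of at most 0.05, 3 of 19 rose and 4 fell with BI 456906 30. With semaglutide 100, 0 rose and 5 fell. Over all genes, 10.9% rose and 13% fell with BI 456906 30, and 5.48% and 9.42% with semaglutide 100.

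Of 20 respiratory chain genes, 16 were higher with BI 456906 and 0 lower at an unadjusted p under 0.05, with a median log2 difference of 0.21. Cox4i1, a core-associated subunit of cytochrome c oxidase, was at 1142 to 1319 TPM against 880 to 1180 TPM (log2 difference 0.27, FDR 0.0592). Of 18 fatty acid oxidation genes, 8 were higher and 0 lower, with a median of 0.22. The respiratory chain median against vehicle was 0.14 with BI 456906 30 and -0.04 with semaglutide 100. At an FDR of at most 0.05, 5 of these genes rose with BI 456906 30 and 0 with semaglutide 100, and 0 fell. For the oxidation genes the medians against vehicle were -0.13 and -0.31. Of these, 3 fell with BI 456906 30 and 8 with semaglutide 100 at that FDR, and 0 rose. Both lists had no member with an unadjusted p under 0.05 at 20 nmol/kg. Adipocyte markers moved along with them, with 5 of 12 higher, a median of 0.49 and sums of 16874 to 31292 TPM against 12446 to 28963 TPM, and their part in these results was not tested. Without libraries 29 and 40, 13 of the 20 respiratory chain genes, 6 of the 18 oxidation genes, 4 of the 19 thermogenic genes and 2 of the 12 adipocyte markers were higher, where 10.0% of all genes were. Without library 40 alone, where 7.50% of all genes were higher, the counts were 11, 3, 4 and 1, and 1 of 12 adipocyte markers is near that background.

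Genes induced by glucocorticoids leaned higher with BI 456906 30, and at 20 nmol/kg their median had the other sign. All 12 members had a positive log2 difference, 6 at an unadjusted p under 0.05, with a median of 0.51, and their summed level was 3433 to 5919 TPM against 2465 to 3273 TPM, with no overlap. Mt1 and Mt2, metallothionein genes that zinc also induces, made up much of that sum, at 1855 to 4337 TPM against 1397 to 2306 TPM. The other 10 members summed to 1200 to 1688 TPM against 904 to 1681 TPM, and library 39 of semaglutide lay above 5 of the 6 BI 456906 libraries (a split made after the values were seen). Sgk1, a kinase gene, was at 139 to 166 TPM against 67.9 to 159 TPM (log2 difference 0.51, SE 0.15, FDR 0.0671). Fkbp5, a chaperone of the glucocorticoid receptor, was at 110 to 209 TPM against 68.6 to 188 TPM (log2 difference 0.67, FDR 0.354). Against vehicle, which had sums of 1280 to 2677 TPM, 11 of the 12 rose with BI 456906 30 and 7 with semaglutide 100 at an FDR of at most 0.05. At 20 nmol/kg the median log2 difference between the compounds was -0.22, with 3 members higher and 9 lower, and for Fkbp5 it was -0.72 (interval -1.59 to 0.15).

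Clock genes leaned higher with BI 456906 30, with overlap in every member. Of 17, 12 had a positive log2 difference, 8 were higher and 1 lower with BI 456906, with a median of 0.31. Nr1d2, a repressor of the clock, was at 17.4 to 24.1 TPM against 13 to 18.5 TPM (log2 difference 0.39, SE 0.09, FDR 0.0540), and Per2, a period gene, at 22.6 to 44.2 TPM against 10.3 to 30.0 TPM. Arntl, an activator of the clock, was the lower member, at 6.62 to 11.5 TPM against 9.72 to 13.8 TPM. Dbp, a clock output gene, was at 18.3 to 34.3 TPM against 16.6 to 24.7 TPM (log2 difference 0.39, FDR 0.174). At 20 nmol/kg, Dbp and Arntl had log2 differences of 0.49 (unadjusted p = 0.00782) and -0.34 (unadjusted p = 0.0171) in limma/voom, in the same directions, but the median of the list there was 0.03, with 9 members higher and 8 lower. The hour at which each fat pad was taken is not given in the sources used here.

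The core genes of fat storage and release did not pass the test in either direction. Of 16 lipolysis genes, 4 were higher and 1 lower at an unadjusted p under 0.05, with a median of 0.43. Pnpla2, the first lipase of triglyceride breakdown, was at 1281 to 2510 TPM against 811 to 2310 TPM (log2 difference 0.51, interval -0.02 to 1.04), and Lipe, hormone-sensitive lipase, at 393 to 858 TPM against 316 to 858 TPM (0.49, interval -0.02 to 1.00). Plin1, which coats the lipid droplet, had a log2 difference of 0.40 (-0.14 to 0.95), and Adrb3, the fat cell adrenergic receptor, one of 0.15 (-0.82 to 1.12). G0s2, an inhibitor of Pnpla2, was at 155 to 313 TPM against 107 to 266 TPM, and its log2 difference was 0.64 (unadjusted p = 0.0104, limma/voom) and, at 20 nmol/kg, 0.63 (unadjusted p = 0.0139).

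Among storage and synthesis genes, Lpl, the lipase that takes up triglyceride from blood, was at 1649 to 1990 TPM against 1679 to 2449 TPM (log2 difference -0.21, FDR 0.127). Against vehicle, Lpl fell with both compounds, by 0.70 on the log2 scale with BI 456906 and by 0.48 with semaglutide. Fasn, fatty acid synthase, had a log2 difference of 0.54 (interval -0.09 to 1.17), Scd1, a fatty acid desaturase, one of 0.28 (-0.34 to 0.90), and Acly, which supplies acetyl-CoA, one of -0.05 (-0.17 to 0.08). Of 23 lipogenesis genes, 2 were higher and 1 lower. Pck1, which makes glycerol phosphate for triglyceride in fat, was at 670 to 1933 TPM against 304 to 1648 TPM (0.74, interval -0.19 to 1.68).

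Leptin and insulin-responsive genes leaned to BI 456906 without passing. Lep, a hormone gene that follows fat cell size, was at 170 to 527 TPM against 43.5 to 356 TPM (log2 difference 0.74, FDR 0.199), and vehicle mice had 1094 ± 325 TPM. Adipoq, the adiponectin gene, had a log2 difference of 0.34 (interval -0.23 to 0.92). Slc2a4, the insulin-responsive glucose transporter, was at 30.6 to 72.5 TPM against 20.2 to 60.2 TPM (log2 difference 0.71, FDR 0.103). Irs2, an insulin receptor substrate, was at 23.9 to 50.7 TPM against 21.3 to 43.5 TPM (0.47, FDR 0.179). Of 18 insulin and glucose genes, 5 were higher and 0 lower, and this count rested on single libraries. Without semaglutide library 40, 1 of 18 was higher, where 7.50% of all genes were, so that the count was near the background. Without BI 456906 library 29, 11 of 18 were higher, where 18.3% of all genes were.

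Of 21 amino acid breakdown genes, 8 were higher and 0 lower with BI 456906, with a median of 0.36. Without libraries 29 and 40, 3 of 21 were higher, where 10.0% of all genes were. Without library 40 alone, 3 of 21 were higher, where 7.50% of all genes were. Without library 29 alone, 16 of 21 were higher and 1 lower, where 18.3% of all genes were higher. Bcat2, which begins the breakdown of branched chain amino acids, was at 141 to 200 TPM against 98.5 to 200 TPM (log2 difference 0.31, FDR 0.144). Asns, asparagine synthetase, was at 45 to 76.6 TPM against 27.1 to 60.6 TPM (log2 difference 0.72, SE 0.20, FDR 0.0632). In the stress response list, 3 of 17 were higher (Asns, Chac1 and Phgdh) and 3 lower, where 10.3% and 14.4% of all genes were. The lower count was near that background. The lower ones were chaperones of the endoplasmic reticulum: Hsp90b1 did not overlap (309 to 366 TPM against 369 to 598 TPM, FDR 0.0632), Sdf2l1 had a log2 difference of -0.72 and Hspa5 one of -0.50.

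**Figure D5:**
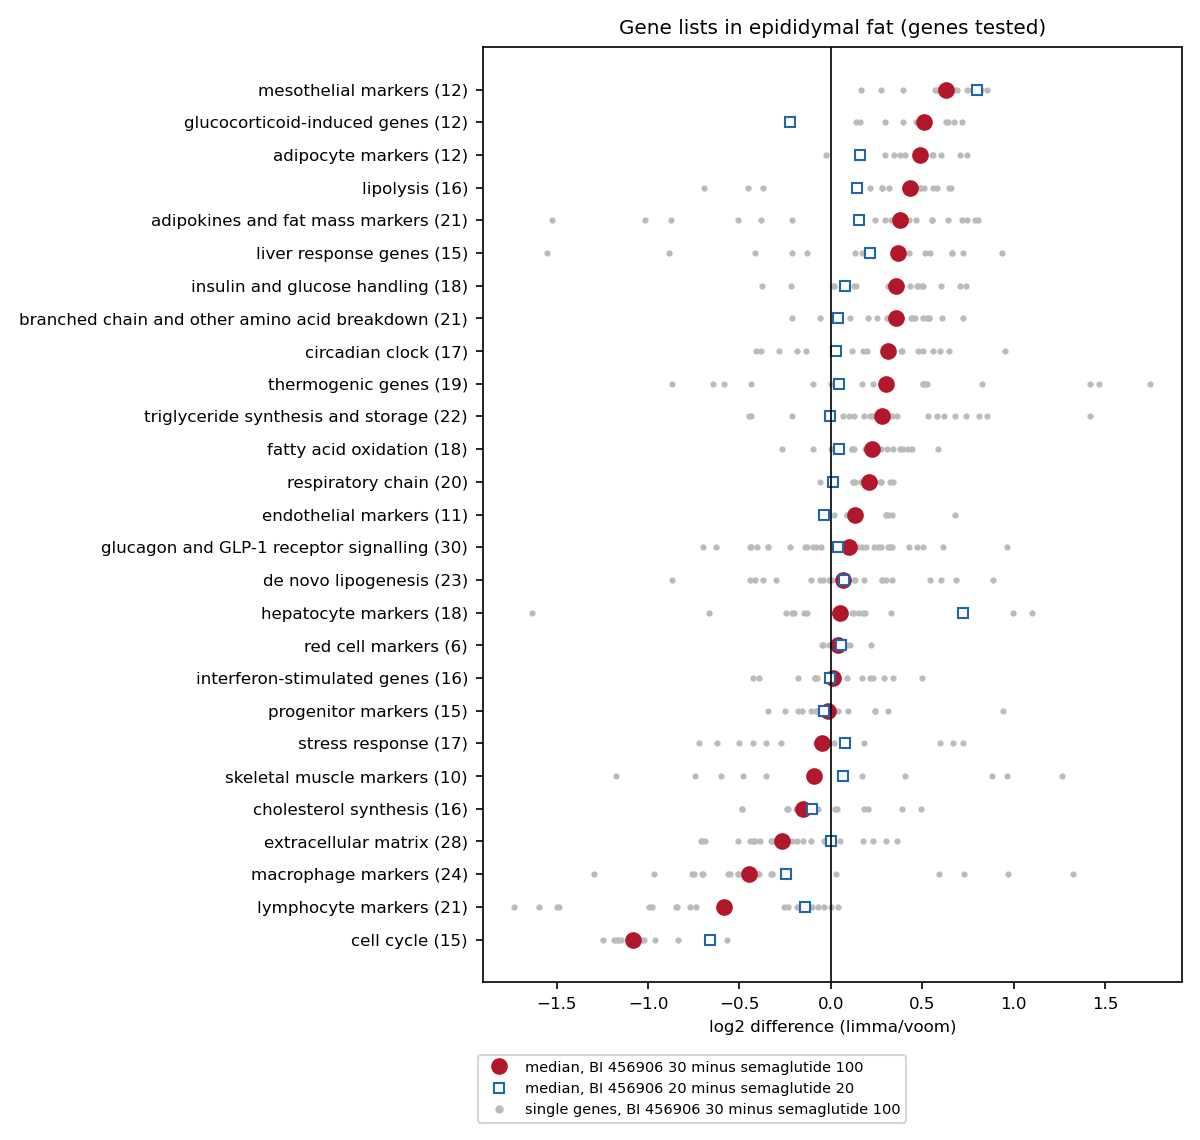
Log2 difference between the compounds in eWAT (x axis, limma/voom) for each gene list (y axis, number of genes tested in brackets): grey points are single genes and red circles the list median for BI 456906 30 minus semaglutide 100, blue squares the list median for 20 nmol/kg of each. The cell cycle list lies lowest at both dose pairs, and the glucocorticoid-induced list changes side.

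The other lists are given by their counts. Lymphocyte markers had a median of -0.58 with 3 of 21 lower, and Cd3e, a T cell marker, was at 1.61 to 2.75 TPM against 1.11 to 4.31 TPM. Mesothelial markers, from the lining of the pad, had a median of 0.63, with 12 of 12 higher but 0 at an unadjusted p under 0.05. Their median was 0.80 at 20 nmol/kg, again with 12 of 12 higher, 1 at an unadjusted p under 0.05. Against vehicle, their median was positive with both compounds, 1.652 with BI 456906 30 and 1.079 with semaglutide 100. At an FDR of at most 0.05, 8 of the 12 rose with BI 456906 30 and 0 with semaglutide 100. Over all genes, 10.9% and 5.48% rose. Of 28 extracellular matrix genes, 0 had an unadjusted p under 0.05, and Col1a1 had a log2 difference of -0.71 (interval -1.46 to 0.04) that was -0.30 without library 40. Progenitor, endothelial, red cell, interferon, hepatocyte and skeletal muscle lists had medians between -0.09 and 0.13. At an unadjusted p under 0.05, they had at most 2 members on either side. All 11 endothelial markers had a positive log2 difference, 1 of them at an unadjusted p under 0.05. At 20 nmol/kg, 4 endothelial markers were higher and 7 lower. The hepatocyte median of 0.05 was -0.56 without semaglutide library 40, -0.82 without libraries 29 and 40, and -1.40 with sample quality weights. Cholesterol synthesis had 1 higher and 2 lower, and receptor and cyclic AMP signalling had 3 higher and 3 lower of 30. Triglyceride synthesis and storage had 3 higher and 3 lower of 22 (median 0.28), and adipokines had 3 higher and 2 lower of 21 (median 0.38). Of the 3 epididymis and testis markers tested, 1 was lower (median -0.51).

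Each compound set against vehicle gave more calls than the compounds set against each other. BI 456906 30 differed from vehicle in 1176 genes (422 higher, 754 lower, 6.34% of those tested) and semaglutide 100 in 766 (129 higher, 637 lower, 4.13%). The vehicle libraries held hepatocyte marker sums of 148 to 11650 TPM and lymphocyte marker sums of 390 to 11017 TPM. In the 12 libraries these sums were at most 3291 and 2378 TPM. The hepatocyte list had medians of -3.12 and -3.10 against vehicle. Of its 18 members, 7 and 3 fell at an FDR of at most 0.05, where 13% and 9.42% of all genes did. The part of other tissues in these calls was not tested. For the named genes these comparisons are given side by side, since they share the vehicle mice. The log2 difference from vehicle was 0.84 with BI 456906 and -0.90 with semaglutide for Cox8b, 0.86 and -0.37 for Ccn2, -0.19 and 0.51 for Folr2, and -0.72 and 0.60 for Brca1. Cox8b and Ccn2 rose with BI 456906 at an FDR of at most 0.05 (0.0494 and 0.0166), Folr2 rose with semaglutide (0.0153), and the other values did not pass.

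In liver, the same doses were apart in 253 genes (98 higher, 155 lower with BI 456906) of 15964 tested (1.58%), against 1 of 18536 in fat. The count in fat ran from 0 to 262 on leaving out 1 library. At an unadjusted p under 0.05 the shares were close, 24.1% in liver and 24.6% in fat. The median absolute log2 difference was 0.143 in liver and 0.186 in fat. The interval of a gene extended 0.242 and 0.325 to either side at the median. The difference between the tissues was itself tested in a fit of both, over 15297 genes, and 244 were called (167 more positive in fat, 77 less; 1.60%), while 7.79% had an FDR of at most 0.05 at any size. Tent5b and Dusp18 had log2 differences of -0.01 and -0.02 in liver, and the difference between the tissues did not pass (FDR 0.10 and 0.416). Arrdc3, an arrestin family gene, had a log2 difference of 0.51 in fat (54.8 to 120 TPM against 33.1 to 121 TPM, FDR 0.238) and of -2.15 in liver, and the difference between the tissues was 2.72 (FDR 1.77e-05). Nnmt, nicotinamide N-methyltransferase, had log2 differences of 0.43 in fat (FDR 0.218) and 1.57 in liver (FDR 0.000396), and the difference between the tissues did not pass (FDR 0.0567). Of 15 genes listed for the liver response and tested in fat, 1 was higher at an unadjusted p under 0.05, Asns. That list holds Arrdc3 and Nnmt and came from the study's results in these liver libraries, so their tissue differences are a description. Fgf21, a hormone gene, had a log2 difference of 0.55 (FDR 0.367) in fat.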

How the data were processed

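The sources describe 2 library preparations (poly(A)-selected, strand-specific, read from both ends in the paper's methods for liver; another kit with single reads in the labels) and do not settle which was used for fat, so the strand setting is unknown and overlapping genes may share reads. The submitters' processing notes name STAR 2.5.2b, RSEM 1.3.0 and featureCounts 1.5.1. The authors deposited for each gene a scaled signal, the reads divided by a size factor for each library; in the 12 libraries, 100% of values were whole multiples of 1 step (tolerance 1e-06), which gave the reads. The TPM deposited by the authors served for levels only. The tables list 48794 gene identifiers, 48434 with a GENCODE M21 symbol (GRCm38).

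Genes were tested on the deposited signal with voom from limma 3.58.1 (under R 4.3.3, with edgeR 4.0.16 for scaling), in a fit of all 42 eWAT libraries over 7 groups, with TMM scaling, filterByExpr, a pseudocount of 0.5 and Benjamini-Hochberg FDR over all genes. The scripts were tested on simulated data. DESeq2 1.42.0 and edgeR's quasi-likelihood test ran on the recovered reads, and limma on log2(TPM + 1) and log2(TPM + 0.1). Named were all called genes, then the smallest p until 10 stood in each direction, and fixed leading genes of each list. The members and lists were chosen with earlier results of these data known. Nothing in the labels says that the libraries of a group came from separate mice, so p-values measure the spread between these libraries, which may be technical; pairs within a group differed by more than counting noise (chi-square over degrees of freedom 20.0 to 307).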

Additional observations from a re-analysis of the deposited data

Results flagged for a closer look

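Outlying libraries were sought in the 47 tested named genes, in both groups of 6 (94 groups, of which chance would mark about 1 in 20), and 6 were found by Dixon's criterion. Library 29 of BI 456906 30 was farthest from its group for Lipe (393 TPM, lowest) and Trem2 (845 TPM, highest). In semaglutide 100, Fasn was highest in library 38 (172 TPM), Col1a1 in library 40 (1008 TPM) and Fkbp5 in library 39 (188 TPM). Fgf21 was highest in library 27 of BI 456906 30 (1.26 TPM).

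The difference between the compounds was not the same in fat and liver for 6 of 41 named genes, by the interaction of tissue and compound in limma/voom (FDR at most 0.05, which 7.79% of all 15297 genes tested had). All of these but Arrdc3 had been named for the smallest p in fat, which is a term of that interaction. Arrdc3 is listed for the liver response, which the study drew from these liver libraries, the other term. The count is thus a description and no test. The log2 difference in fat minus that in liver was 2.72 for Arrdc3, 0.54 for Prpsap1, 0.37 for Arl2, -0.62 for Slc16a10, -1.30 for Gm43924 and -1.47 for Brca1. The labels do not tie a fat library to a liver library of the same mouse.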

How the results depend on the processing

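For BI 456906 30 against semaglutide 100 in fat, the 1 gene called and the 2 genes with an FDR of at most 0.05 became 4 and 16 with RLE size factors, 32 and 168 with library size alone (9 of 32 higher), 58 and 288 (10 of 58 higher) with at least 10 in every library, 112 and 302 with edgeR, 151 and 970 with DESeq2, 3 and 35 with log2(TPM + 1), 13 and 59 with log2(TPM + 0.1), and 578 and 6774 (203 of 578 higher) with sample quality weights. Without the filter 2 were called, on the 12 libraries alone 1 gene had an FDR of at most 0.05, and without libraries 29 and 40 (chosen after seeing the data) the counts were 0 and 1. Leaving out 1 library gave 0 to 262 called and 0 to 1785 with an FDR of at most 0.05. The cause was not tested. At 20 nmol/kg, DESeq2 gave 2 called and 4 with an FDR of at most 0.05, and the other settings gave 0. With at least 10 in every library and with log2(TPM + 1), calls went to 571 and 546 from 1176 for BI 456906 30 against vehicle, to 402 and 447 from 766 for semaglutide 100 against vehicle, and to 151 and 117 from 253 in liver. 3 leading genes changed sign: on leaving out a library, the Adrb3 log2 difference ran from -0.019 to 0.486, the Acly log2 difference from -0.0481 to 0.0192 and the Cd3e log2 difference from -0.215 to 0.15; Acly was 0.0436 with log2(TPM + 0.1) and 0.0432 with log2(TPM + 1), and Cd3e 0.323 with quality weights. No paired analysis was possible because every library carries its own number. Genes at or under 3 reads, such as Glp1r, could not be compared at this depth.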
